A study of Mus musculus with 2 samples.

Results

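The miR-29 family was described across heart libraries of a mouse microRNA-seq series. Its members were the hairpin genes Mir29a, Mir29b-1, Mir29b-2 and Mir29c, taken by name from the GENCODE M21 annotation of the deposited gene identifiers. All 4 were found, among 2202 miRNA genes in each table. The tissue was heart of adult male mice aged 8 to 10 months, of the strain given as 5xFAD/CAST, supplied by The Jackson Laboratory. 5xFAD is a transgenic amyloid model whose transgenes are driven by the neuronal Thy1 promoter, and CAST is a wild-derived inbred strain. The labels do not say whether these animals carried the transgenes, and they name no treatment. The 2 libraries, replicates 1 and 2, formed a single group, so no condition could be compared. In the labels their biosample entries differ while a donor entry is shared, and separate animals are not stated. Differences therefore measure only the spread between these libraries, which may be technical. The p-values set these differences against counting error only, not against variation between replicates.

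MicroRNAs are cut from hairpin transcripts, and the mature strand guides the silencing complex to messenger RNAs that pair with its seed, the bases near its 5′ end. The miR-29 family is known for targeting collagen, elastin and fibrillin messages, and a fall of miR-29 in injured heart has been linked to scar formation. No messenger RNA was measured in this series, so the name collagen repressor is background and was not examined as an effect on targets.

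The mature sequences are shown first because they set which reads could be given to each hairpin. RefSeq sequences on GRCm38.p6 were matched for all 4 members. Capitals mark the seed, bases 2 to 8 counted from the 5′ end. The 3p arms were these:
mmu-miR-29a-3p: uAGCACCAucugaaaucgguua
mmu-miR-29c-3p: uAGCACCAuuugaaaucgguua
mmu-miR-29b-3p, from both Mir29b-1 and Mir29b-2: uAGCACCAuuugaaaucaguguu
The 5p arms had different seeds from the 3p arms and from each other:
mmu-miR-29a-5p: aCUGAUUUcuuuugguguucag
mmu-miR-29c-5p: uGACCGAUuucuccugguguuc
mmu-miR-29b-1-5p: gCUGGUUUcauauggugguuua
mmu-miR-29b-2-5p: cUGGUUUCacaugguggcuuagauu
Among 1679 named mouse mature sequences in the RefSeq table, the 3p seed occurred in 3, all of them miR-29 arms.

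The 3p arms of miR-29a and miR-29c were identical at 21 of 22 positions. Their only difference was C10U, with positions counted from 1 at the 5′ end and the miR-29a base given first. From miR-29c to miR-29b the first 22 positions held 3 changes, G18A, U21G and A22U, so their first 17 bases were the same. miR-29a and miR-29b differed at 4 of 22 positions.

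The full hairpins show where the members can be told apart outside the 3p arm, which is in capitals here:
Mir29a: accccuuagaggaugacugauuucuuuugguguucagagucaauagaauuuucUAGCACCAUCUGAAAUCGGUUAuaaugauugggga
Mir29c: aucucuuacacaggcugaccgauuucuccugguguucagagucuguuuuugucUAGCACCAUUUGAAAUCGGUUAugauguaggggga
Mir29b-1: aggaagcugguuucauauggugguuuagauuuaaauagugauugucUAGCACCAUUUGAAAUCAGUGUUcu
Mir29b-2: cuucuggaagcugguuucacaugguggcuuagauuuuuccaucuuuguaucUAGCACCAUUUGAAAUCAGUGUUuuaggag
Mir29b-1 and Mir29b-2 shared a stretch of 25 bases that holds the whole 3p arm. Mir29c shared 22 bases with Mir29b-1, and the longest stretch Mir29a shared with another hairpin was 14 bases. Among annotated hairpins, a sequence starting at the first base of the 3p arm became particular to Mir29a at 10 bases and to Mir29c at 18 bases. For Mir29b-1 and Mir29b-2 it took 24 bases, which is past the 23-base end of the arm. The 5p arms became particular to their hairpin at 9 to 11 bases.

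**Figure D1:**
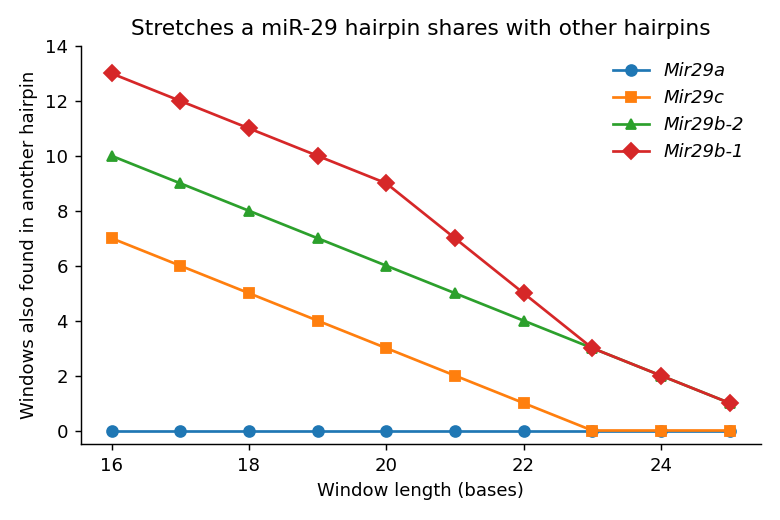
Number of windows of each hairpin (vertical axis) that also occur in another annotated miRNA hairpin, by window length from 16 to 25 bases (horizontal axis). At 22 bases, 5 windows of Mir29b-1, 4 of Mir29b-2, 1 of Mir29c and 0 of Mir29a were shared.

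This matters for the counts because reads aligned to several places were given to no gene. Such reads made up 42.3% of all reads in replicate 1 and 46.8% in replicate 2. A read that covers only the annotated miR-29b-3p arm fits both Mir29b hairpins, so the tables give no count of miR-29b-3p. The counts of Mir29b-1 and Mir29b-2 can come from their 5p arms or from 3p reads that run past the shared stretch. Which of these they were was not tested, because the tables count hairpins and not arms. The sequences are those of the reference genome, and CAST alleles were not examined.

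The members lie in a pair on chromosome 6 and a pair on chromosome 1 (mm10). On the minus strand of chromosome 6, Mir29b-1 (ENSMUSG00000065604.2, chr6:31063023-31063093) comes first in the direction of transcription. Mir29a (ENSMUSG00000065610.1, chr6:31062660-31062747) follows after a gap of 275 bases. Mir29b-1 overlaps the exon of the long noncoding RNA gene Gm27019 by 2 bases, and Mir29a overlaps no other annotated gene. On the plus strand of chromosome 1, Mir29b-2 (ENSMUSG00000065412.3, chr1:195037040-195037120) is followed after 426 bases by Mir29c (ENSMUSG00000065548.1, chr1:195037547-195037634). Both lie within an exon of A330023F24Rik, annotated as a processed transcript. On the other strand both lie within the 3′ UTR of Cd46, a complement regulator. None of the 4 hairpins had a count on the opposite strand in either library, a result that allows up to 3 counts each.

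The libraries held 3889280 and 5058613 sense counts. Levels are given as CPM, the sense count divided by its library's total and scaled to 1000000. A count of 0 allows up to 0.771 CPM in replicate 1 and 0.593 CPM in replicate 2. Detected means at least 10 sense counts in both libraries, which 325 genes reached. Heart muscle markers (Mir208a, Mir208b and Mir499) summed to 6731 and 7430 CPM. Of the 6 neuronal Mir124a and Mir9 hairpins, 0 were detected, but both arms of the 3 Mir9 hairpins also occur in another hairpin and the Mir124a arms were not matched to a mature sequence, so this is no check of neurons. Of the fibroblast markers Mir214 was present. Mir199a-1 and Mir199a-2 have both arms copied in another hairpin, and their low values do not bear on fibroblasts. In a whole tissue, fewer cells of a type and less RNA per cell cannot be told apart.

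The counted family was almost wholly Mir29a. Mir29a had 63611 sense counts in replicate 1 and 74509 in replicate 2. Its levels were 16355 and 14729 CPM, a mean of 15542 ± 1150 (SD, n = 2). By reads given to a single hairpin, it ranked 15 among the 325 detected genes. Reads that aligned to several places, 42.3% and 46.8% of all reads, entered no level. The rank is thus not a rank among mature miRNAs. Both libraries were high, and the SD was small beside the mean.

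Mir29c, the chromosome 1 hairpin whose 3p arm is a single base from that of Mir29a, had 2103 and 6520 counts. Its levels were 541 and 1289 CPM, a mean of 915 ± 529 CPM (SD, n = 2) at rank 61. Replicate 2 was the higher library, and the SD was large beside the mean.

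Mir29b-1, the partner of Mir29a on chromosome 6, had 224 and 289 counts. This gave 57.6 and 57.1 CPM, a mean of 57.4 ± 0.328 CPM (SD, n = 2) at rank 153. Mir29b-2, the partner of Mir29c, had 114 and 158 counts, or 29.3 and 31.2 CPM, a mean of 30.3 ± 1.36 CPM (SD, n = 2) at rank 187. Both Mir29b hairpins thus stood near the middle of the detected genes, at percentiles 52.9 and 42.5, against 95.4 for Mir29a and 81.2 for Mir29c. Reads are of mature size whatever the hairpin's length, so these levels were not divided by length. The order Mir29a, Mir29c, Mir29b-1, Mir29b-2 held in both libraries, and no neighbours in it overlapped. It is an order of reads given to a single hairpin, not of the mature miRNAs, since a read that covers only the annotated miR-29b-3p arm fits both Mir29b hairpins.

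**Figure D2:**
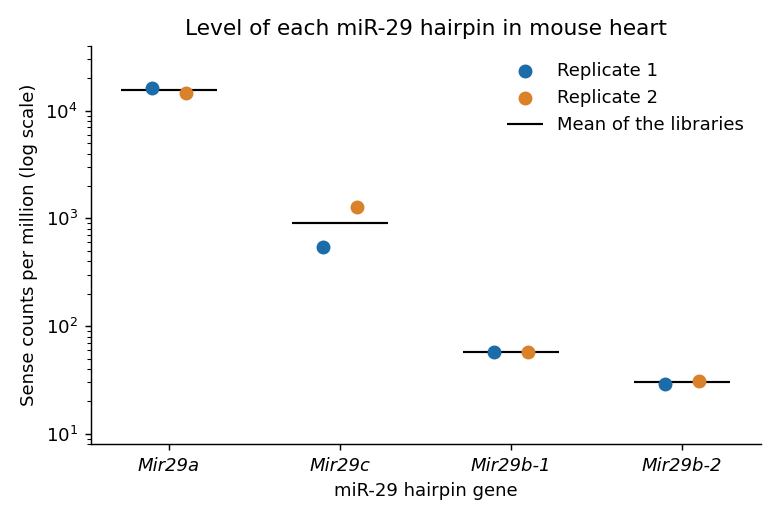
Level of each miR-29 hairpin in CPM on a log scale (vertical axis), by hairpin (horizontal axis). Points are the libraries, replicates 1 and 2, and bars are their means. Mir29c is the member whose points stand apart, at 541 and 1289 CPM.

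**Figure D3:**
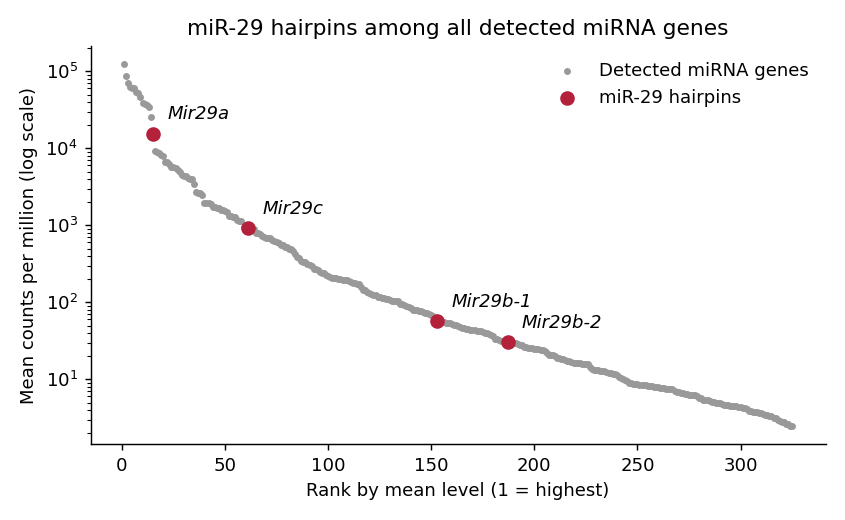
Mean CPM on a log scale (vertical axis) of the 325 detected miRNA genes by rank (horizontal axis), with the miR-29 hairpins in red. Mir29a stands at rank 15 and Mir29b-2 at rank 187. Ranks are of reads given to a single hairpin, not of mature miRNAs.

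In replicate 1 the 4 hairpins together held 1.70% of sense counts, with a 95% Clopper-Pearson interval from 1.69 to 1.71. In replicate 2 they held 1.61% (1.60 to 1.62). Mir29a took 96.3% of the family's counts in the first library (96.2 to 96.4) and 91.4% in the other (91.3 to 91.6). Mir29c took 3.18% (3.05 to 3.32) and 8.00% (7.82 to 8.19). Shares within a library sum to the whole, and those of the Mir29b hairpins were small. The smaller share of Mir29a in replicate 2 and the larger share of Mir29c are therefore not separate results. Mir29b-1 and Mir29b-2 took 0.347% ± 0.0110 and 0.183% ± 0.0151 (SD, n = 2). By locus, the chromosome 6 pair held 96.6% and 91.8% of the family's counts and the chromosome 1 pair 3.36% and 8.20%. Reads were amplified by PCR with no molecular identifiers given in the sources used here, so these intervals cover counting error only. A read that covers only the annotated miR-29b-3p arm fits both Mir29b hairpins and enters no share. The shares are thus of reads given to a single hairpin, not of the mature miRNAs.

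Between the libraries, Mir29c had the largest fold of the 4 members. After scaling by the trimmed mean of M-values (TMM), it was 2.60-fold higher in replicate 2 (95% exact interval 2.47 to 2.73). Its adjusted p was too small to be represented and is listed as 0 (two-sided exact binomial test, Benjamini-Hochberg over all tested genes). Mir29a also passed the test, with a level 1.02-fold higher in replicate 1 (1.01 to 1.03, adjusted p = 0.00224, exact binomial test). With DESeq2 size factors Mir29a did not pass and its log2 ratio was 0.0036, against -0.026 with TMM. Its direction is therefore not settled. Mir29b-1 did not pass, at 1.08-fold in replicate 2 over replicate 1 (0.905 to 1.29, adjusted p = 0.530, exact binomial test). Its direction flipped with total-count scaling, where the log2 ratio was -0.011. Mir29b-2 did not pass either, at 1.16-fold (0.908 to 1.49, adjusted p = 0.347, exact binomial test).

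The 2 members called of 4 tested stand beside 187 of 412 tested genes called in either direction, or 45.4%. By direction, 22.8% of tested genes stood higher in replicate 2 and 22.6% lower there. Calls followed depth. Of the 40 detected genes nearest to Mir29a in level, a wide range from 1970 to 124376 CPM, 38 were called. Of those nearest to Mir29b-2, from 20.6 to 44.0 CPM, 14 were called. The number of members called is thus near the background. Of called genes, 50.3% were higher in replicate 2, and 39.7% with total-count scaling, which shifts all log2 ratios by -0.13.

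In size, the difference of Mir29c stood toward the edge of the detected genes. Its log2 ratio of replicate 2 over replicate 1 was 1.38, with 1 CPM added to both levels. Of the 325 detected genes 6.46% were at least as far from 0, with a median distance of 0.36. Of the 40 genes nearest to Mir29c in level, from 469 to 1911 CPM, 10.0% were at least as far. The distance of Mir29a from 0 was 0.03, and 94.2% of detected genes were at least as far. For Mir29b-1 and Mir29b-2 these shares were 84.3% and 70.5%.

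**Figure D4:**
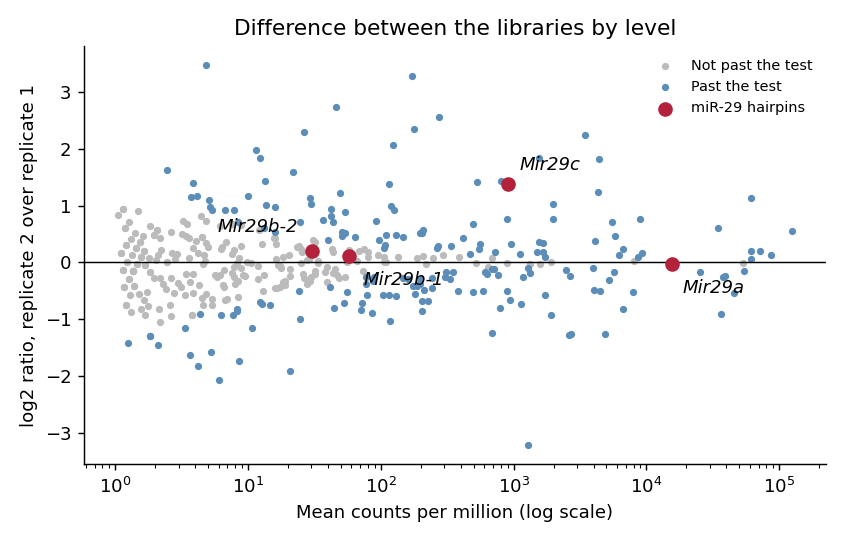
Log2 ratio of replicate 2 over replicate 1 after TMM scaling (vertical axis) by mean CPM on a log scale (horizontal axis) for the 412 tested genes, grey or blue by the exact binomial test. The miR-29 hairpins are in red. Mir29c lies at 1.38 and the other members within 0.21 of 0.

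Markers of heart cell types went both ways between the same libraries. Among heart muscle markers Mir499, in a myosin gene intron, stood at 2732 and 5888 CPM. Mir208a stood at 3885 and 1485 CPM, and Mir208b at 115 and 56.5 CPM. Of these 3 markers 1 was called higher in replicate 2 and 2 in replicate 1. For endothelium Mir126a stood at 87115 and 87787 CPM and was called higher in replicate 2. The summed fibroblast markers, nearly all of them Mir214, were 2603 and 1257 CPM. The summed smooth muscle markers were 30137 and 41747 CPM, with 2 of 2 higher in replicate 2, and 0 of 3 leukocyte markers were called. Their part in the difference of Mir29c was not tested.

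Count ratios between members do not depend on how the libraries were scaled. In replicate 1 the ratio of Mir29a to Mir29c was 30.2, with a 95% exact interval from 29.0 to 31.6. In replicate 2 it was 11.4 (11.1 to 11.7). It was thus 2.65 times larger in replicate 1 (2.52 to 2.78), with an adjusted p listed as 0 (two-sided Fisher's exact test, Benjamini-Hochberg over the 6 pairs of members). The ratio of Mir29c to its chromosome 1 partner Mir29b-2 was 18.4 (15.3 to 22.5) and 41.3 (35.2 to 48.6), with an adjusted p of 1.05e-09 by Fisher's exact test. The ratio of Mir29c to Mir29b-1 also differed, at 9.39 and 22.6 (adjusted p = 8.80e-20, Fisher's exact test). All 3 pairs that hold Mir29c passed the test.

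The 3 pairs without Mir29c did not pass. On chromosome 6 the ratio of Mir29a to Mir29b-1 was 284 (249 to 325) in replicate 1 and 258 (230 to 290) in replicate 2, and the intervals overlapped. The change from replicate 1 to replicate 2 was 0.908-fold (0.759 to 1.09, adjusted p = 0.344, Fisher's exact test). The ratio of Mir29b-1 to Mir29b-2, whose 3p arms are identical, was 1.96 (1.56 to 2.48) and 1.83 (1.50 to 2.23), a change of 0.931-fold (0.683 to 1.27, adjusted p = 0.650, Fisher's exact test). The ratio of Mir29a to Mir29b-2 changed 0.845-fold (0.658 to 1.08, adjusted p = 0.271, Fisher's exact test). Changes within these intervals were not detectable at these depths.

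**Figure D5:**
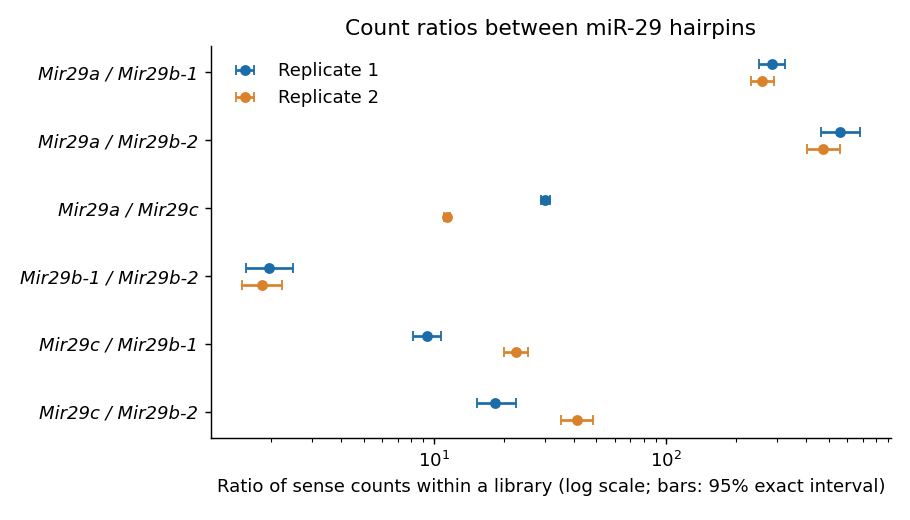
Ratio of sense counts between members within each library (horizontal axis, log scale) for the 6 pairs (vertical axis). Points are replicates 1 and 2 and bars are 95% exact intervals covering counting error. The intervals of the libraries are apart in the 3 pairs that hold Mir29c and overlap in the other 3.

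Partners in the same cluster had very unequal counts. The mean level of Mir29a was 271 times that of Mir29b-1, and that of Mir29c was 30.2 times that of Mir29b-2. Over the 88 pairs of neighbouring detected hairpins on a strand with a gap of at most 10 kb, the median fold between partners was 4.85. Of these pairs 2.27% were at least as uneven as Mir29a with Mir29b-1, and 10.2% as Mir29c with Mir29b-2. The lower partner in both is a Mir29b hairpin, and a read that covers only the annotated miR-29b-3p arm fits both Mir29b hairpins. The folds are thus of reads given to a single hairpin, not of the mature miRNAs. The partners' ratio moved 2.24-fold between the libraries on chromosome 1 and 1.10-fold on chromosome 6, against a median of 1.41-fold. Of the 88 pairs 18.2% and 88.6% moved at least as far. Pairs from a longer cluster share hairpins, so these shares are descriptions.

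Other hairpins with a copied arm give a setting for the Mir29b genes. Of the hairpins with RefSeq sequences, 61 have a mature arm that occurs in another hairpin and a further arm that does not. Of these 33 were detected, with a median of 106 CPM and a range from 4.57 to 6667 CPM. Mir29b-1 and Mir29b-2 ranked 20 and 21 of the 33. Of 908 hairpins with no copied arm 253 were detected, with a median of 46.3 CPM, and in that class Mir29a ranked 13 and Mir29c 49. Of 49 hairpins with every arm copied 4 were detected.

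Genes with the most similar levels over both libraries were found by the distance in log2(CPM + 1), which with 2 libraries reflects little beyond the level. For Mir29c they were Mir31 (distance 0.292), at 459 and 1142 CPM, and Mir15b (0.434), at 692 and 1085 CPM. Both were also higher in replicate 2, by 2.71-fold and 1.71-fold. Because they were chosen by their levels in both libraries, the shared direction follows largely from the choice and is no separate result. For Mir29a they were Mir26b (0.999), at 27890 and 22890 CPM, and Mir30a (1.069), at 9099 and 9364 CPM. For Mir29b-1 they were Mir224 (0.076) and Mir5099 (0.102), and for Mir29b-2 Mir449a (0.127) and Mir487b (0.136).

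Beside other miRNAs studied in heart fibrosis, Mir29a was among the hairpins with the most reads given to a single hairpin. In that list at least 12 hairpins hold a mature arm that another hairpin also holds. Their levels, like those of Mir29b, are not levels of the mature miRNAs. For Mir1a-2, Mir133a-1 and Mir133a-2 no mature arm was matched, and for Mir1a-1 only 1. Copied arms were thus not fully assessed in these hairpins, and their low values are no levels of mature miRNAs either. No order of the mature miRNAs follows. Of 28 hairpins in that list 25 were detected, and 1, Mir22, exceeded Mir29a, at 61609 ± 29097 CPM (SD, n = 2). The next in order were Mir30a at 9232 ± 187, Mir34a at 8678 ± 98.5, Mir155, known from inflammation, at 4042 ± 1175, and Mir21a, known to raise growth signalling in heart fibroblasts, at 3462 ± 3070 CPM. Between the libraries 16 of the 27 tested passed the test with the higher level in replicate 2, and 5 with the lower. With total-count scaling these counts were 13 and 5. With TMM scaling 22.8% of all tested genes were called higher in replicate 2 and 22.6% lower. The list's called share of 77.8% stands beside 45.4% of all tested genes, and the detected list genes had a median of 332 CPM against 49.2 CPM for all detected genes. Since calls followed depth, the larger share is not read as a trait of the list. The median log2 ratio of the list was 0.26, against 0.00 for all tested genes. Mir21a stood at 1291 and 5632 CPM, the same direction as Mir29c, and Mir214 at 2598 and 1254 CPM, the opposite direction.

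The family's shared seed was also looked for in messages linked to miR-29, most of them of matrix genes, as a description of sequence only. The reverse complement of bases 2 to 8, TGGTGCT, was searched on the message strand in the longest annotated 3′ UTR of each protein-coding gene in GENCODE M21. Of 20 genes listed for their known link to miR-29, 18 held it, and 10 held it at least 2 times. These counts include genes that are not matrix genes: Dnmt3a with 5 matches, Dnmt3b with 1, Tet1 with 7, Mcl1 with 1 and Pdgfra with 2. The list was drawn from known targets, so the share with a match is not independent of the motif. Of all 20829 such UTRs of at least 30 bases 13.2% held it, and of UTRs of similar length to the listed ones (80 to 125% of each) a mean of 18.0%. Col5a1 held 4 matches, Eln 3, Fbn1 2, and Col1a1 and Col3a1 1 each, while Col1a2 and Sparc held 0. A value of 0 covers only this 7-base match in the longest annotated 3′ UTR. Shorter matches and other transcripts were not searched. The messages for fibrillar collagen, elastin and fibrillin are shown because they are the best known targets of the family. Capitals mark the match, in 30 bases of the reference message (GRCm38) around the first match that is followed by A:
Col1a1, plus strand, chr11:94952523-94952552: gtgggaaggaatttcTGGTGCTatagaagc
Col3a1, plus strand, chr1:45348967-45348996: ttcaaaatgtctcaaTGGTGCTataataaa
Eln, minus strand, chr5:134703729-134703758: cgacctcatcaacgtTGGTGCTactgcttg
Fbn1, minus strand, chr2:125301166-125301195: tttctgttgtctgttTGGTGCTagtaaatt
Each match pairs with the seed of all 3 mature 3p sequences, which do not differ before base 10. No level of these messages was measured.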

How the data were processed

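Small RNA (total RNA, size range given as below 30 in the labels) of mouse heart was sequenced in 2 libraries. The deposited tables hold raw read counts per miRNA gene, a column that ignores strand and a column for each strand, as judged from layout and values. Build mm10 and GENCODE M21 are named in the deposited description files. For the aligner, the name is not given in the sources used here. A set of 4 summary lines name no gene and stayed out of library sizes. Reads with several alignments made up 42.3% and 46.8% of the total, unmapped reads 14.5% and 12.5%, and reads outside miRNA genes 7.33% and 5.15%. Sense was taken to be the strand column whose total was the larger. All 2202 identifiers matched GENCODE M21.

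Levels are CPM of sense counts. Genes with a sum of at least 10 counts were tested between libraries by an exact binomial test (two-sided), whose null share came from TMM effective sizes (edgeR 4.0.16, R 4.3.3), Benjamini-Hochberg adjusted at 0.05. It compares libraries, not conditions, and covers counting error only. With 1 group, edgeR's quasi-likelihood test could not be run. Across detected genes what edgeR terms the biological coefficient of variation was 0.343. It was estimated from these 2 libraries, which share a donor entry, so it may hold technical spread. Pairs of members were compared with Fisher's exact test over 6 pairs, and intervals are 95% Clopper-Pearson. The genes named are the 4 members, the 2 nearest genes to each by log2(CPM + 1), the 5 fibrosis list genes of highest level, and genes overlapping a member. Further names (markers, Mir214, other single genes of the fibrosis list, and single genes of the list searched for seed matches) were added to describe a list. The members and lists were chosen with earlier results of these data known. Alternatives were total-count and DESeq2 1.42.0 scaling, other count minimums and denominators, another pseudocount, the column without strand and leaving out each library. No genome sequence was used, so matches of the arms outside annotated hairpins are not given.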

Additional observations from a re-analysis of the deposited data

How the results depend on the processing

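The call of Mir29c, higher in replicate 2, held under total-count and DESeq2 scaling, without a count filter, with a sum of at least 50 counts, in the column without strand and with 0.5 CPM added, at log2 ratios from 1.25 to 1.41. With DESeq2 size factors Mir29a turned to 0.0036 and was no longer called (adjusted p = 0.781, exact binomial test). Over its other alternatives the log2 ratio ran from -0.15 to -0.026. With total-count scaling Mir29b-1, which was not called, turned to -0.011. In both cases the cause was the scaling itself, since the counts were the same. Genes called numbered 172 to 199 against 187. Their share of tested genes ran from 25.6% without a count filter to 61.3% with a sum of at least 50 counts, against 45.4%. In the column without strand, where fewer reads were given to genes, the levels were 20336 CPM for Mir29a, 75.1 for Mir29b-1, 39.7 for Mir29b-2 and 1208 for Mir29c. With all reads as denominator they were 5560, 20.5, 10.8 and, for Mir29c, 327 per 1000000 reads. Leaving out replicate 1 or 2 gave a Mir29a to Mir29c ratio of 11.4 or 30.2 against a mean of 20.8, and a Mir29c level of 1289 or 541 CPM against 915. With 2 libraries, leaving out 1 always moves a mean by less than 1 SD. No paired analysis was possible because there was only 1 group. Depth limits the Mir29b hairpins, whose counts of 114 to 289 leave intervals of about the widths given.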
